A study of Mus musculus with 6 samples.

Results

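The 81 members described here were the genes of the cytosolic ribosomal proteins, of which 50 encode proteins of the large (60S) and 31 proteins of the small (40S) ribosomal subunit. They were taken from the 21887 protein-coding genes on chromosomes 1 to 19, X and Y of the RefSeq gene table for mm10 (GRCm38.p6). The rule used symbols only: Rpl or Rps, digits and at most one letter a, l or x, plus Rplp0, Rplp1, Rplp2 and Rpsa. Open chromatin had been mapped by ATAC-seq, in which a transposase cuts accessible DNA, in hematopoietic stem cells (HSCs) sorted as CD48-CD150+LSK cells from mouse bone marrow, about 5000 cells per library. All mice were wild-type C57BL/6J. In 3 libraries (titled WT) the mice had received DMSO, the solvent, and in the other 3 (titled ER) tunicamycin at 2 mg/kg, both by intraperitoneal injection. Tunicamycin blocks N-linked glycosylation and so loads the endoplasmic reticulum (ER) with unfolded protein. Age, sex and the time between injection and sorting were not given in the sources used here. The labels do not say whether the libraries of a group came from separate animals, so p-values measure the spread between these libraries only.

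Cytosolic ribosomal proteins, together with ribosomal RNA, build the ribosomes that make nearly all cellular protein. Their mRNAs start with a C followed by a run of pyrimidines, the 5′ terminal oligopyrimidine (TOP) motif, through which the kinase mTORC1 controls their translation. HSCs are known for a low rate of protein synthesis and for their sensitivity to changes in it. In people, loss of a single copy of several of these genes causes Diamond-Blackfan anaemia, and RPS14 is among the genes lost in a form of myelodysplasia with anaemia.

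The starts of 10 members are shown because they carry the features and the extremes described below. Each runs from 50 bases before to 30 bases after the start listed in the RefSeq promoter table (mm10), 5′ to 3′ on the gene's own strand. Capitals mark the longest run of C and T found between 30 bases before and 50 bases after the start.
Rpl7a (chr2:26910757-26910836, plus strand): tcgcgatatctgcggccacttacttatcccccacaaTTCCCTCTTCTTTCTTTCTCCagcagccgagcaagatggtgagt
Rpl11 (chr4:136053364-136053443, minus strand): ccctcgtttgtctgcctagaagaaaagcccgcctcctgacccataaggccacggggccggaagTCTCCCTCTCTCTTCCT
Rpl31 (chr1:39367801-39367880, plus strand): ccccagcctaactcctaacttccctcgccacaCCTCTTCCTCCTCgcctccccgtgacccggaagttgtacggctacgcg
Rps6 (chr4:86857338-86857417, minus strand): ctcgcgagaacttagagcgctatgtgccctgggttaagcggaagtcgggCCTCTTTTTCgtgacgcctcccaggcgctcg
Rpl38 (chr11:114668530-114668609, plus strand): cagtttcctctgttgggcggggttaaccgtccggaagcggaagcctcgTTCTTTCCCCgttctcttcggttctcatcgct
Rpl13 (chr8:123102300-123102379, plus strand): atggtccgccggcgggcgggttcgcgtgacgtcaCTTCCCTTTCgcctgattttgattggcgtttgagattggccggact
Rps28 (chr17:33824533-33824612, minus strand): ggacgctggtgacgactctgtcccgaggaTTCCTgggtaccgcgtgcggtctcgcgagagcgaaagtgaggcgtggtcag
Rpl19 (chr11:98026660-98026739, plus strand): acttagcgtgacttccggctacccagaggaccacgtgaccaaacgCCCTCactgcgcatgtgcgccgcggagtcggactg
Rpl39 (chrX:37085193-37085272, minus strand): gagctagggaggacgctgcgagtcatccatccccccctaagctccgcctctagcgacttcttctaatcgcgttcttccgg
Rpl39l (chr16:10170178-10170257, plus strand): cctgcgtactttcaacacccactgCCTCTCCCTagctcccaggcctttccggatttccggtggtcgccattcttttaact
The first, Rpl7a, had the longest pyrimidine run of the members within the stretch searched, 21 bases, and is followed by the letters aagatgg. Rpl11 carried a run of 17 bases directly after the letters ccggaag, the core of an ETS factor site. In Rpl31 the run was 13 bases, and ccggaag lay downstream of it with other bases between. The run of Rps6 was 10 bases, and that of Rpl38, whose summit of open chromatin lay far downstream of its start in 4 of 6 libraries, was also 10. Rpl13 had the smallest p of the members in the comparison by rank, Rps28 was the one member higher in all tunicamycin libraries there, and Rpl19 stood lowest by fold enrichment. In Rpl39 the longest run, 14 bases, began 37 bases after the start and so lies beyond the bases printed. It reached the end of the stretch searched and may be longer. Rpl39l, its closely related counterpart, had a run of 9 bases and no peak in any library.

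Long pyrimidine runs were more frequent at the open starts of the members than at open starts as a whole. The promoter table listed a start for 61 members, and at 56 of them a peak was called in all 6 libraries. Of these 56, 38 (67.9%) held a run of at least 10 pyrimidines, against 11.6% of all 8020 open starts. The share was 12.9% of 62 open starts of mitochondrial ribosomal protein genes and 6.90% of 29 open starts of proteasome subunit genes, both groups that likewise encode parts of large complexes. These shares are descriptions and were not tested. They count any run from 30 bases before to 50 bases after the start, and are not counts of TOP motifs. At Rpl10 and Rps2, for example, the run began 41 bases after the start. Runs were cut where that stretch ended, so some may be longer. The median longest run was 10 bases in the members and 6 bases in each of the other 3 sets. Over all 61 listed members, open or not, 39 (63.9%) held a run of at least 10 pyrimidines, against 13.7% of 17492 listed genes. Rpl27, Rpl19, Rpl22, Rpl24, Rps16 and Rps28 were open members with a longest run of 5 bases, the shortest seen.

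**Figure D1:**
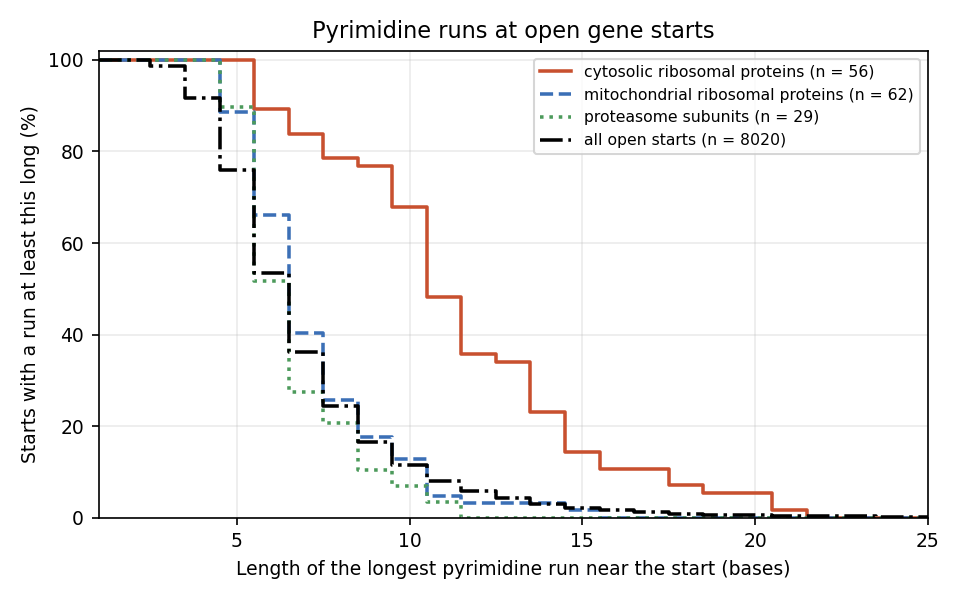
Share of open starts (y axis, %) whose longest pyrimidine run is at least as long as the value on the x axis (bases), for 56 cytosolic ribosomal protein genes, 62 mitochondrial ribosomal protein genes, 29 proteasome genes and all 8020 open starts. At 10 bases the members stand at 67.9% and all open starts at 11.6%.

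Short motifs were counted on both strands of the 300 bases from 250 before to 50 after each listed start. A match is a description of letters and not of a bound factor. The ETS core CCGGAAG occurred in 24 of 56 open member starts (42.9%), against 21.7% of all open starts, 35.5% of mitochondrial ribosomal protein starts and 34.5% of proteasome starts. Among its carriers were Rpl11, Rpl15, Rpl31, Rps6 and Rpsa. CTCGCGAG, the palindrome read by BANP, occurred in 6 member starts (10.7%), Rpl12, Rpl26, Rpl27a, Rps19, Rps28 and Rps6, against 2.38% of all open starts. The cyclic AMP response element TGACGTCA occurred in 5 (8.93%), Rpl13, Rpl18, Rpl26, Rpl27a and Rps9, against 3.77%. AAGATGG, the core of the YY1 site, occurred in 8 (14.3%) against 8.03% of all open starts, and in 21.0% of mitochondrial ribosomal protein starts and 20.7% of proteasome starts. The SP1 core GGGCGG was found in 58.9% of member starts and 70.1% of all open starts, and CCAAT in 32.1% and 40.9%. In mitochondrial ribosomal protein and proteasome starts the shares were 54.8% and 62.1% for GGGCGG and 35.5% and 34.5% for CCAAT. The E-box CACGTG, a MYC and USF site, occurred in 8.93% of member starts and 11.1% of all, and TATAAA in 8.93% and 5.86%. Overlaps between motifs were not removed, so that a CCAAT inside the ER stress element described next would count for both.

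The 3 elements of the ER stress response that were searched for occurred in none of the 56 open member starts. They were the XBP1 and ATF6 site TGACGTGG, the ER stress element, which joins a CCAAT box to the letters CCACG by a spacer, and the CHOP-ATF4 composite TGATGNAAT. The shares of all 8020 open starts with them were 0.985%, 0.175% and 0.324%. None of the 62 mitochondrial ribosomal protein starts or the 29 proteasome starts held them either. At shares this low, 56 starts are too few for an absence to set the members apart. The absence of a match says only that these letters were not in this window.

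The open member starts had a median GC content of 58.2%, against 62.0% of all open starts. The median was 58.8% at mitochondrial ribosomal protein starts and 59.0% at proteasome starts, close to that of the members. Across the 56 members, the mean percentile of fold enrichment described below ran with neither base composition nor the run. Spearman's rho was 0.117 with GC content, -0.0028 with the number of CpG dinucleotides and -0.0278 with the length of the pyrimidine run, given as a description because the points share their 6 libraries. The 24 members with an ETS core had a median percentile of 85.9, and the 32 without it 83.3.

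Open chromatin was called at nearly every member, in both groups. Peaks of the 6 libraries that overlapped by at least 1 bp were merged into 82993 union regions, of which 92 lay in or within 1 kb of a member. All 6 libraries called 85 of the 92 member regions, against 25.1% of all union regions. Of the 81 members, 77 (95.1%) had a region called in all 6 libraries, against 54.4% of all protein-coding genes. Of the 61 listed starts, 56 (91.8%) were called in all 6, against 45.8% of all 17492 listed starts. The same held for 62 of 69 mitochondrial ribosomal protein genes (89.9%) and 29 of 32 proteasome genes (90.6%). The differences between these 3 sets were not tested.

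The 4 exceptions were Rps4x and 3 genes named as relatives of other members. Rpl10l, a retrogene of the X-linked Rpl10 that is used in male germ cells, Rpl39l, the relative of Rpl39 known from testis, and Rpl32l had no region in any library. Rps4x, the X-linked gene of a 40S protein, was called in 5 of 6 libraries. Its percentile was 91.8 and 79.5 in DMSO libraries 1 and 2 and 91.5, 81.4 and 72.9 in tunicamycin libraries 1 to 3, and it had no peak in DMSO library 3, the list with the fewest peaks (28501). Rpl3l, the relative of Rpl3 known from striated muscle, counted among the 77 only through a region at its far end (chr17:24736269-24737290) that overlaps the listed start of Msrb1. No region overlapped its own listed start. By contrast Rps27l, the p53-induced relative of Rps27, was open in all 6 libraries.

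For each member 1 principal region was used, the region over the listed start or, for the 20 members without a listed start, the region called in most libraries and then with the highest mean percentile. Principal regions were called in all 6 libraries for 76 members, 56 with and 20 without a listed start. Of the members, 63 had 1 region, 15 had 2 and 3 had none. Of the 15 regions that were not principal, 6 overlapped a listed start of another gene, namely Zc3h10, Cacnb1, Msrb1, B3galt4, Sphk2 and Snapc5. Of these 15, 9 were called in all 6 libraries and 5 in only 1 or 2. A region just inside the limit of 1 kb lay 836 bp from Rps10 and was called in 1 library. Those just outside lay 1007 bp from Rpl10, in 3 libraries, and 1031 bp from Rpl19, in 1.

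The summits, the position of the strongest signal within a peak, lay mostly just upstream of the members' starts. The median over the 56 listed and open members was 50 bases upstream (interquartile range -101 to -14.1), and over all 8020 open starts 47 bases upstream. Within 100 bases of the start lay 40 of 56 member summits (71.4%), against 62.4% of all. The share was 71.0% for mitochondrial ribosomal protein starts and 75.9% for proteasome starts. Rplp2 and Rps26 had summits far upstream in every library, with medians of -356 and -334 bases and spreads of 16 and 11 bases. Rpl38 and Rps25 were among the members with summits at separate places in different libraries, and the widest spread was that of Rpl4 (670 bases). The summit of Rpl38 lay at 519, 535 and -91 bases in DMSO libraries 1 to 3 and at 538, 542 and -42 in the tunicamycin libraries. That of Rps25 lay at -55, -63 and -333 and at -376, -348 and -332 bases. In both Rpl38 and Rps25 the groups overlapped. A member's summit differed between its 6 libraries by a median of 43.5 bases from lowest to highest.

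**Figure D2:**
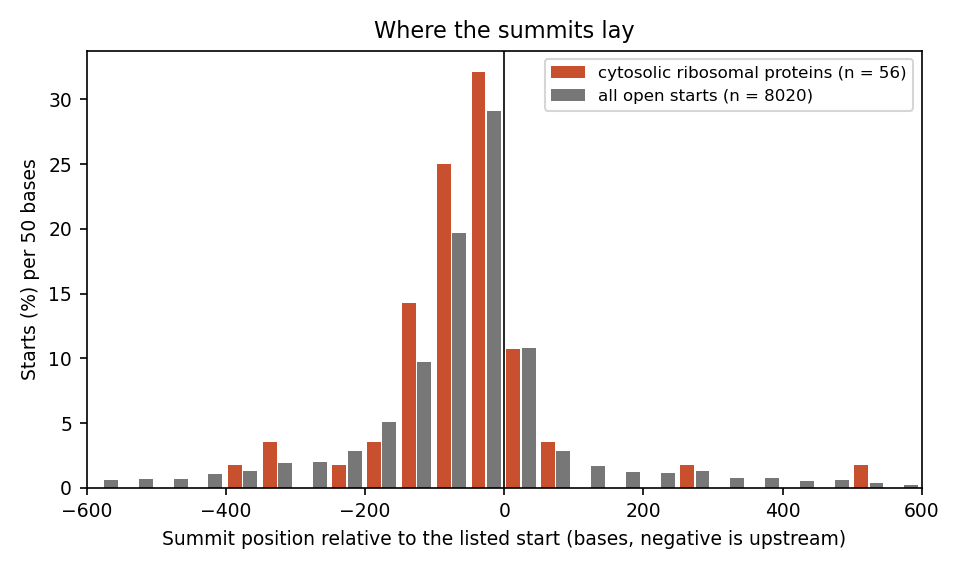
Share of open starts (y axis, %) by the position of the summit relative to the listed start (x axis, bases, bins of 50, median over 6 libraries), for 56 members and all 8020 open starts. Both sets peak in the 50 bases upstream of the start, with medians of -50 and -47.

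The strength of each principal region was read from the authors' fold enrichment, as its percentile among all peaks of the same list, where 100 is the strongest. Averaged over the 6 libraries, the 76 members ranged from 35.9 to 98.2 with a median of 83.2. Above 90 lay 22 members, between 75 and 90 another 36, between 50 and 75 another 15, and below 50 only 3. Among members with listed starts the median was 83.4, beside 83.3 for all open starts, 86.3 for mitochondrial ribosomal protein genes and 89.5 for proteasome genes. The 46 members of the 60S subunit had a median of 80.6, and the 30 of the 40S subunit 86.1. This difference was not tested.

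The strongest member regions were those of Rpl31, Rpl15, Rpl27, Rps26 and Rpl37, with mean percentiles of 98.2, 98.0, 97.7, 96.6 and 96.2. Rpl31, a protein near the exit of the ribosomal tunnel, had fold enrichments of 14.8, 12.4 and 11.4 in DMSO libraries 1 to 3 and 12.7, 12.9 and 13.7 in the tunicamycin libraries. Its region was chr1:39367589-39368406. All 6 values lay between percentiles 97.6 and 98.8 of their lists, and the groups overlapped. Rpl15, mutated in some patients with Diamond-Blackfan anaemia, stood at percentiles 99.4, 97.1 and 95.4 after DMSO and 98.4, 99.3 and 98.2 after tunicamycin. Rps26, another Diamond-Blackfan gene, stood at 96.2, 96.2 and 95.6 and at 98.6, 97.9 and 95.0.

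Among the weakest were Rpl19 and Rpl18, at 35.9 and 40.9, and Rpl8 and Rpl38, at 55.6 and 58.3. Rpl19 (chr11:98026531-98027263) had fold enrichments of 4.73, 5.17 and 3.60 after DMSO and 4.51, 6.07 and 5.41 after tunicamycin, and its percentiles ran from 6.87 in DMSO library 3 to 58.8 in tunicamycin library 2. Rpl18 (chr7:45717636-45718386) stood at 51.6, 49.9 and 30.1 after DMSO and 46.0, 33.2 and 34.7 after tunicamycin. Rpl38, needed for normal translation of Hox mRNAs in mouse embryos, stood at 64.5, 67.5 and 42.6 and at 55.9, 63.5 and 55.9, with overlapping groups.

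**Figure D3:**
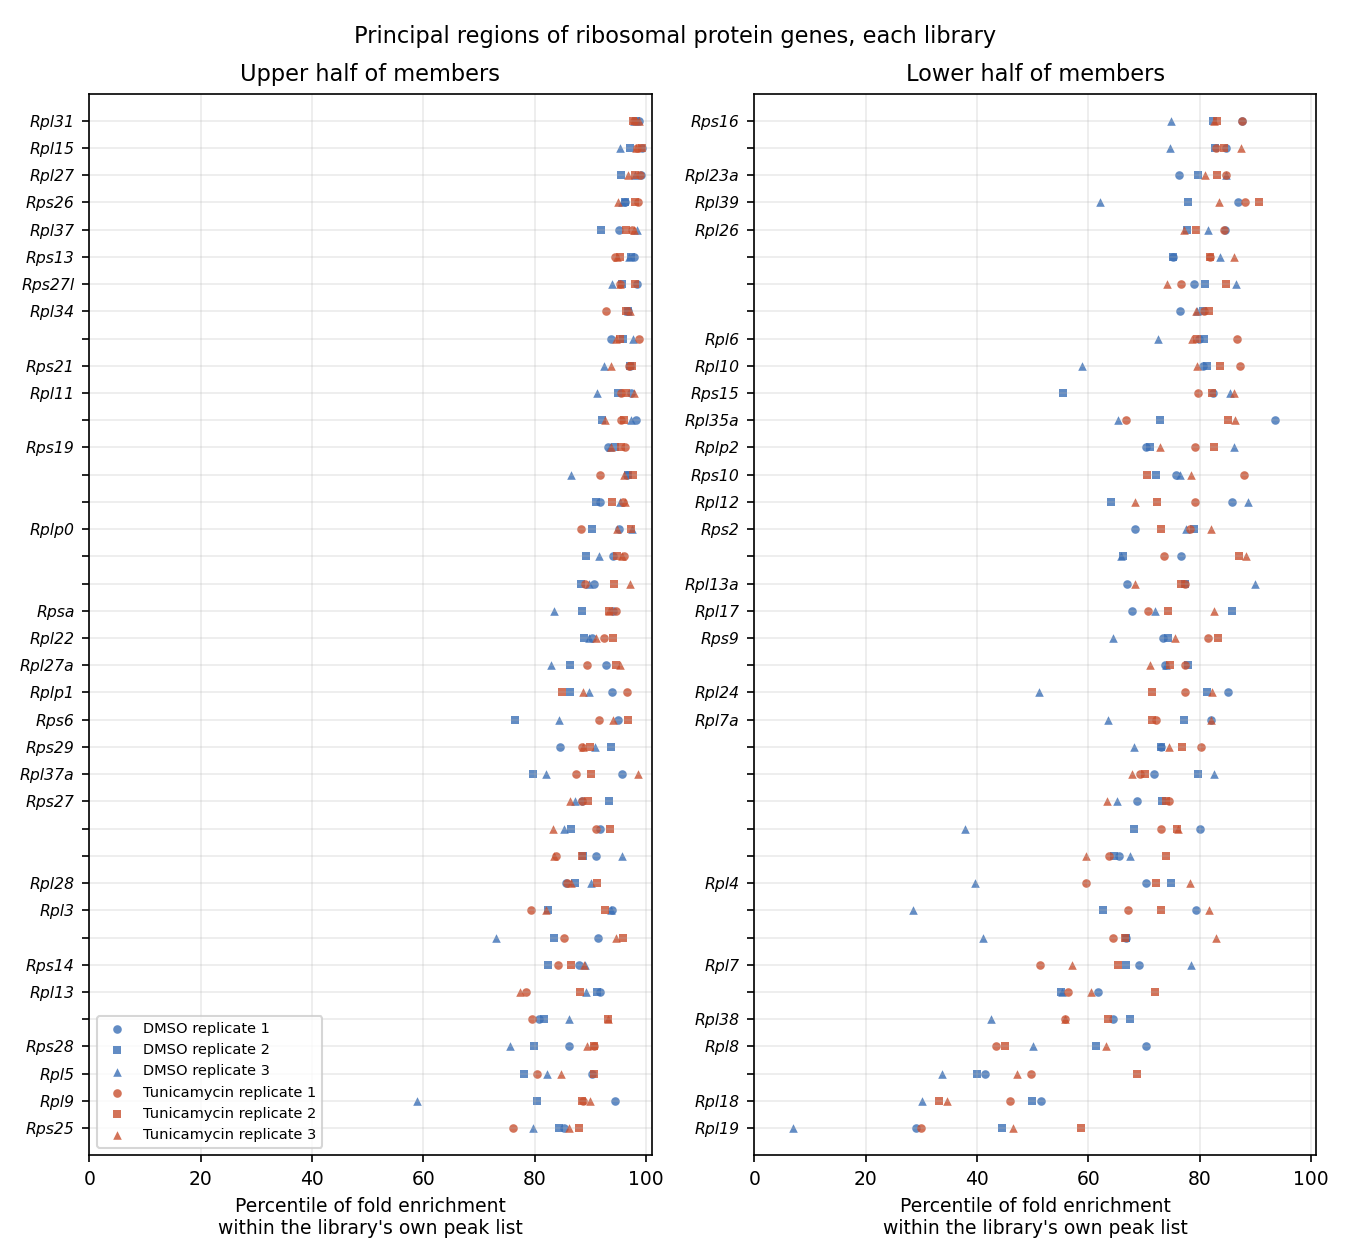
Percentile of fold enrichment within each library's own peak list (x axis) for the principal regions of 76 members (y axis, ordered by mean, members named in the text labelled), 3 DMSO (blue) and 3 tunicamycin (red) libraries as separate points. Values run from a mean of 98.2 for Rpl31 to 35.9 for Rpl19, and DMSO replicate 3 is the lowest point for 29 members.

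Members with known roles in blood were among those with middle to high values. Rps19, the gene most often mutated in Diamond-Blackfan anaemia, stood at 93.1, 94.4 and 93.5 after DMSO and 96.3, 95.5 and 93.8 after tunicamycin. Rps14 stood at 88.0, 82.4 and 89.1 and at 84.2, 86.6 and 88.8. Both genes of the 5S particle, whose proteins bind Mdm2 and stabilise p53 when ribosome assembly fails, were open in every library. Rpl5 stood at 90.3, 78.1 and 82.3 after DMSO and 80.4, 90.7 and 84.7 after tunicamycin, and Rpl11 at 97.3, 95.0 and 91.3 and at 95.5, 96.4 and 97.9. Rpl22, needed in lymphocyte development, ran from 88.9 to 94.2. Rpl10, mutated in T cell leukaemia, ran from 58.9 in DMSO library 3 to 87.3 in tunicamycin library 1. On this scale the groups overlapped for each of these members but Rpl22, and in the common set of regions described below the groups of Rpl22 overlapped too (72.9, 79.8 and 86.0 after DMSO and 83.7, 84.4 and 79.7 after tunicamycin).

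Rps6, the phosphorylated target of S6 kinase downstream of mTORC1, varied more than most. Its percentiles were 95.0, 76.5 and 84.4 after DMSO and 91.6, 96.8 and 94.0 after tunicamycin, with DMSO library 1 inside the tunicamycin range. The stalk proteins, which recruit translation factors to the ribosome, had means of 93.9 (Rplp0), 90.1 (Rplp1) and 77.0 (Rplp2). Rpsa, also known as the laminin receptor, had a mean of 91.2. Among the related pairs, Rpl3 had a mean of 87.3 and Rpl39 of 81.5, while Rps27l at 96.1 lay above Rps27 at 88.9.

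Neighbouring genes share some of these regions. Another protein-coding gene lay within 1 kb of 18 of the 76 principal regions, for example Med22 at Rpl7a, Ndufa7 at Rps28, Lias at Rpl9 and Rdh10 at Rpl7. The 18 had a median percentile of 77.7 and the other 58 of 85.9. A peak over a shared start cannot be assigned to either gene.

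The libraries differed in how much they called, and member regions were called in most of them all the same. The lists held 62478, 38217 and 28501 peaks in DMSO libraries 1 to 3 and 44952, 56865 and 47789 in tunicamycin libraries 1 to 3. Read depth is unknown from peak lists. Of the regions found in at least 2 libraries, each library called 45.1% (DMSO 3) to 90.5% (DMSO 1). Of the 92 member regions the DMSO libraries called 92, 87 and 85 and the tunicamycin libraries 88, 87 and 88. As percentages these were 95.7% ± 3.92 (SD, n = 3) after DMSO and 95.3% ± 0.628 (SD, n = 3) after tunicamycin, a difference of -0.362 points, smaller than the spread between the DMSO libraries. Of the HSC marker genes, 6 of 10 had a region called in all 6 libraries, including Kit, Procr and Mecom but not Slamf1, Ly6a, Fgd5 or Hoxb5. The same held for 2 of 5 erythroid, 1 of 6 neutrophil and monocyte, 3 of 6 lymphoid, 4 of 4 megakaryocyte and 2 of 5 stromal and endothelial markers. Over all protein-coding genes the share was 54.4%, and marker sets this small do not show which cells were present. The part of other cells in the members' peaks was not tested.

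The first comparison between the groups asked whether tunicamycin opened or closed any member region outright. No member region was called in all 3 libraries of one group and none of the other. Among all union regions 0.683% were called in tunicamycin libraries only and 0.0976% in DMSO libraries only. With 3 libraries against 3, an exact test of presence cannot go below a two-sided p of 0.10.

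The second comparison asked whether any member region changed its rank. Each region's fold enrichment was ranked within its library among the 20810 regions called in all 6, given as a percentile of that common set, and tested with limma on normal scores. Of the 85 member regions in the set none passed an adjusted p of 0.05, nor did any of the 20810 (0%). At an unadjusted p under 0.05, 0 member regions were higher and 1 was lower after tunicamycin, against 2.46% and 1.78% of all regions. The median difference over the 85 member regions was -1.20 percentile points, beside -0.304 over all, and of the 76 principal regions 34 had a higher and 42 a lower mean after tunicamycin. Split by subunit, 16 of 46 60S and 18 of 30 40S members had a higher mean. That split was not tested.

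The groups did not overlap for 6 of the 85 regions. Rps28 alone was higher in all 3 tunicamycin libraries (1.18% of member regions, against 4.66% of all regions), and 5 were lower, among them Rpl7, Rpl8, Rpl13 and Rps13 (5.88%, against 4.55%). These shares lie near or below the background. Ranked by −log10 q-value in place of fold enrichment, the balance turned, with 9 member regions higher (10.6%, against 5.48% of all) and 2 lower (2.35%, against 5.20%).

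Rpl13, a protein of the large subunit, was the single member region with an unadjusted p under 0.05 in limma by rank. Its ranks were 76.7, 84.0 and 85.3 after DMSO and 55.8, 69.0 and 52.1 after tunicamycin, a difference of -23.0 points between means of 82.0 ± 4.68 and 59.0 ± 8.90 (SD, n = 3). On the normal-score scale the difference was -0.69 ± 0.29 (SE), with an adjusted p of 0.996 in limma. All 3 tunicamycin libraries lay below all DMSO libraries.

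Rps28, a small-subunit protein at the mRNA exit, stood at 62.5, 64.1 and 66.8 after DMSO and 80.0, 75.4 and 76.0 after tunicamycin, so that the tunicamycin mean was 12.7 points higher (limma adjusted p = 0.996). Rps13 stood at 93.7, 95.0 and 95.9 and at 88.1, 87.4 and 88.1. The values within each group of Rps13 lay close together and the difference was -7.02 points (limma adjusted p = 0.996). Rpl7 stood at 31.6, 44.4 and 70.6 after DMSO and 20.6, 27.8 and 24.6 after tunicamycin. Rpl8, which lies close to the catalytic centre of the ribosome, stood at 32.7, 37.1 and 36.0 and at 14.6, 10.7 and 31.0. In both Rpl7 and Rpl8 the highest tunicamycin value lay below the lowest DMSO value, and the DMSO libraries of Rpl7 lay far apart.

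The DMSO library with the longest peak list bore on these counts. Without DMSO library 1, 22 of the 85 member regions were lower without overlap and 7 higher (25.9% and 8.24%), beside 16.3% and 12.4% of all regions tested then. None passed an adjusted p of 0.05, and the smallest adjusted p among members was 0.404. The members' median rank in the common set was 61.5 in DMSO library 1, 66.3 in DMSO library 2 and 77.0 in DMSO library 3, and 67.0, 66.1 and 67.7 in the tunicamycin libraries. The tunicamycin libraries thus lay inside the range of the DMSO libraries.

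**Figure D4:**
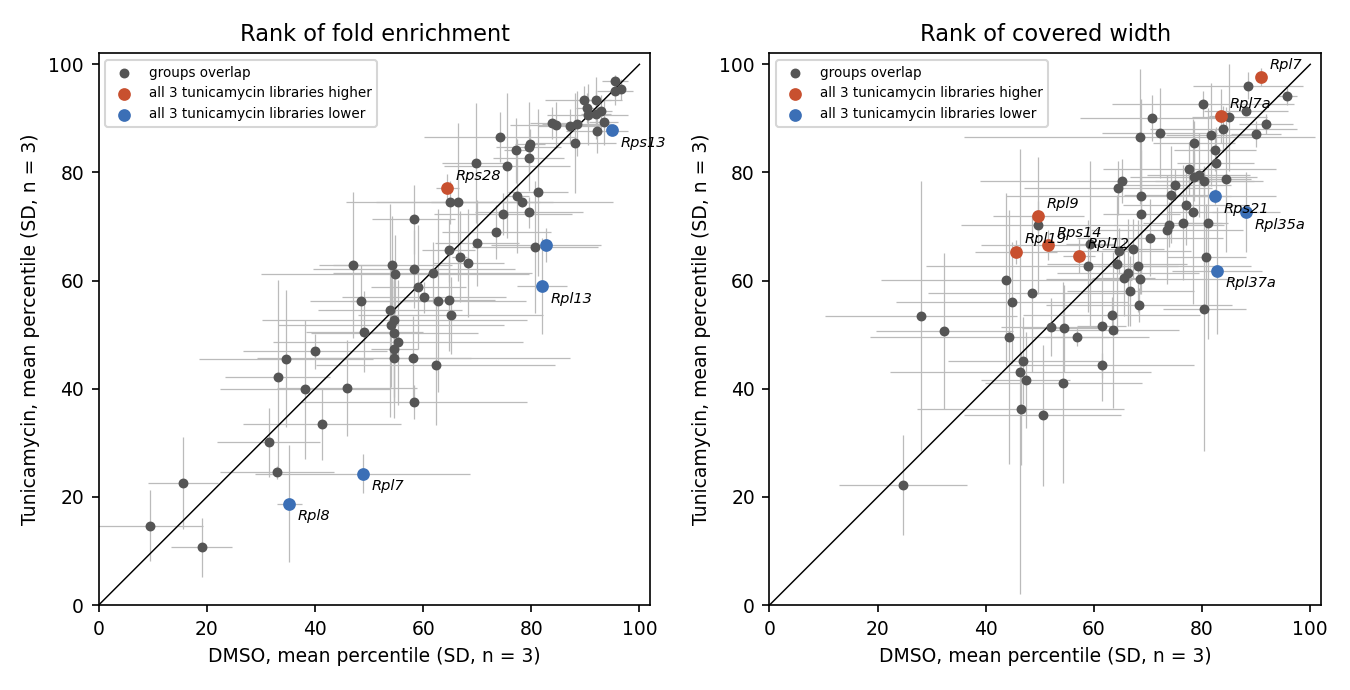
Mean percentile in the common set of regions after tunicamycin (y axis) against DMSO (x axis) for 76 principal regions, by fold enrichment (left) and covered width (right), with bars of 1 SD (n = 3). Coloured points are regions whose groups do not overlap, 1 higher and 5 lower by fold enrichment and 6 higher and 3 lower by width, and most points lie near the line of equal values.

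The third comparison was of width, the number of bases of a region covered by a library's peaks. The median over the 76 members was 808.5, 708 and 557.5 bases in DMSO libraries 1 to 3 and 748.5, 776.5 and 757 bases in tunicamycin libraries 1 to 3. Over all regions called in 6 libraries, most of which are not over a listed start, the medians were 667, 519 and 413 and 576, 631 and 594 bases. Over all open starts (7283 start regions) they were 851, 693 and 567 and 763, 813 and 775 bases, and over the 56 members with a listed start 808.5, 714 and 557.5 and 745, 776.5 and 756 bases. Against other open starts the members were thus narrower by median in 5 of 6 libraries, by a difference that was not tested. DMSO library 3 was the narrowest for 53 of the 76 members. As union regions the widest were those of Rpl34 (1439 bp), Rpl7 (1437 bp), Rps29 (1318 bp), Rpl5 (1296 bp) and Rpl4 (1281 bp), and among the narrowest were those of Rpl28 (597 bp), Rps15 and Rpl23a (628 bp each) and Rps27 (633 bp).

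**Figure D5:**
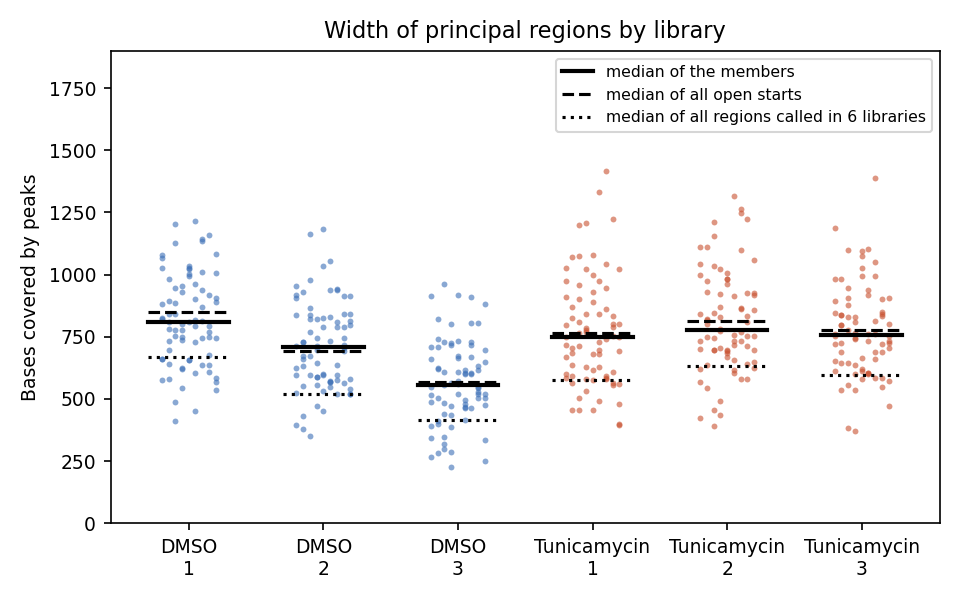
Bases covered by peaks (y axis) in the principal region of each of 76 members (points) in each of the 6 libraries (x axis), with the members' median (solid line) the median of all open starts (dashed line) and the median of all 20810 regions called in all libraries (dotted line). The members' median lies near that of all open starts and above the dotted line, and all 3 are lowest in DMSO library 3 (557.5, 567 and 413 bases).

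Ranked by width within the common set, no member region passed an adjusted p of 0.05, nor did any other region (0%). At an unadjusted p under 0.05, Rpl7, Rpl9 and Rpl38 were wider and Rpl35a and Rpl37a narrower after tunicamycin, 3 and 2 of 85 against 2.86% and 1.96% of all regions. The groups did not overlap for Rpl7, Rpl7a, Rpl9, Rpl12, Rpl19 and Rps14, which were wider (7.06%, against 4.38% of all), and for Rpl35a, Rpl37a and Rps21, which were narrower (3.53%, against 5.33%). Without DMSO library 1 this balance turned as well, with 9 wider and 16 narrower (10.6% and 18.8%, against 10.8% and 19.2% of all).

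Rpl7, a large-subunit protein, had the smallest p of the members by width. It covered 1141, 940 and 807 bases after DMSO and 1418, 1247 and 1388 bases after tunicamycin. In rank these were 91.6, 90.4 and 90.6 and 98.8, 95.7 and 98.5, a difference of 6.76 points (limma adjusted p = 0.948). The same region ranked lower by fold enrichment, as given above, and Rdh10 lies within 1 kb of it. Rpl38 covered 1024, 601 and 518 bases after DMSO and 1077, 981 and 1074 after tunicamycin. Its groups overlapped in rank, since DMSO library 1 stood at 85.7 and tunicamycin library 2 at 85.2.

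Rpl9 covered 623, 587 and 387 bases after DMSO and 775, 829 and 743 after tunicamycin, and shares its region with the start of Lias. Rps14 covered 582, 540 and 504 and then 694, 751 and 754 bases, with ranks of 38.4, 53.0 and 63.1 and 64.9, 65.1 and 69.8 that differed by 15.1 points (limma adjusted p = 0.948). Rpl35a, a Diamond-Blackfan gene, was narrower, with 1082, 799 and 880 bases after DMSO and 749, 918 and 724 after tunicamycin. Its ranks were 89.0, 81.5 and 93.8 and then 70.9, 80.8 and 66.3, so that DMSO library 2 and tunicamycin library 2 lay close together. Rpl37a covered 1134, 809 and 598 bases and then 741, 768 and 582, so that its groups overlapped in bases. They did not overlap in rank, at 91.3, 82.2 and 74.6 after DMSO and 70.2, 67.1 and 48.3 after tunicamycin.

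The other genes of translation were likewise mostly open, with no called difference. All 15 of the other genes with TOP mRNAs had a region called in all 6 libraries, as did 10 of 10 elongation and termination factors. The count was 34 of 35 initiation factors (Eif3g lacked one), 29 of 30 ribosome biogenesis genes (Nop10), 9 of 10 ribosome quality control genes (Nemf) and 11 of 12 genes by which mTORC1 and MYC control ribosome synthesis (Rps6kb2). Mitochondrial ribosomal protein genes had 72 of 78 and proteasome subunit genes 36 of 39. Over all protein-coding genes the share was 54.4%. No start region of any of these lists passed an adjusted p of 0.05 in limma, by rank or by width. Nor did any of the 20810 regions, so this does not set these lists apart.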

How the data were processed

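Members and lists were chosen with earlier results of these data known. Each of the 6 libraries had one peak list, so peaks had been called by library. Per the submitters' processing notes the build was mm10 and the tools included MACS2, Bowtie2 2.2.9, featureCounts, Trim Galore 0.4.4 and Picard, with no role or setting recorded. How reads were filtered or shifted is not given in the sources used here. The deposited lists give each peak's display score, fold enrichment (a ratio over background), −log10 p-value and −log10 q-value, all the authors' own values. The weakest deposited peaks had q-values of 0.0482 to 0.05. Peaks on other sequences, 109 to 138 per list, were left out.

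Groups came from the treatment label. Peaks overlapping by at least 1 bp were merged, and a region counted as called where any peak of a library lay in it. Lists differ in length, so percentiles within lists are descriptions, and tests used ranks over the regions called in all libraries. These were fitted with limma 3.58.1 (R 4.3.3; trend, two-sided, Benjamini-Hochberg adjustment over all 20810 regions), tested on simulated data. Tables and figures were made in Python 3.11.15 (pandas 2.3.3, numpy 2.4.6, matplotlib 3.10.9, scipy 1.17.1). Sequences and starts are RefSeq's (GRCm38.p6); the gene table used here gives no strand, so exons, introns and UTRs were not assigned.

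Members are named, with some exceptions, where they lack a region in all libraries, are among the 5 strongest, weakest, widest or narrowest, have groups that do not overlap, have long been studied in blood or ribosome control, or form related pairs. Others were chosen after their values were seen: those printed as sequences, those that carry a motif, share a region or have a distant summit, and Rpl38 by width. Alternatives changed the q-value limit, list length, cover needed for a call, region definition, distance to the gene, chromosomes, ranked value, replicate block and libraries. Some members and list genes are counted in the totals and not reported singly here.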

Additional observations from a re-analysis of the deposited data

How the results depend on the processing

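Peak lists carry no read depth, so a member without a peak was not called at that library's depth, and that is all its absence shows. The count of member regions called in one group only stayed at 0 under every alternative run, and no alternative brought a member region past an adjusted p of 0.05 by rank or by width. When a call had to cover 50% of a region, the difference in member regions called became 6.16 points (16.6 points SD among the DMSO libraries), and 58 members had a region called in all 6 libraries. Otherwise that number was 74 to 78, and 74 was for autosomes alone. With the widest single peak in place of covered bases, 1 of all 20810 regions passed an adjusted p of 0.05 by width, and it was not a member region.

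Leaving out 1 library at a time gave differences in member regions called from -1.99 to 1.87 points, 77 to 78 members called in every library kept, and 0 regions past an adjusted p of 0.05. Member regions without overlap between groups were 1 higher and 5 lower by rank (1.18% and 5.88%, against 4.66% and 4.55% of all regions). By −log10 q-value they were 9 higher and 2 lower (10.6% and 2.35%, against 5.48% and 5.20% of all regions), and by percentile within each list 6 and 5 (7.06% and 5.88%, against 7.42% and 1.59%). With peaks of a q-value of at most 1e-05 they were 3 and 5 (3.57% and 5.95%, against 4.61% and 4.43% of all). With lists of equal length they were 2 and 6 (2.35% and 7.06%, against 4.419% and 4.425% of all). By log2 width without ranking, 10 were wider and 0 narrower (11.8% and 0%, against 6.30% and 0.687% of all regions). For single members, 890 of 910 differences by rank and 825 of 835 by width stayed within 1 SD of the value reported. Many of these values could hardly do otherwise, so the counts are no measure of stability. The replicate block and the unranked log2 width leave the percentile differences as they were. Leaving out 1 of 3 libraries moves a group mean by less than that SD on unchanged ranks. A sign opposite to the value reported was seen in 110 and 63 of the values, from 45 and 36 members.

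Both groups number their libraries 1 to 3, but same-numbered libraries did not deviate together: the correlations of their deviations were -0.0962, -0.0213 and 0.0245 by rank and -0.0506, -0.0336 and 0.0273 by width. With the replicate number as a block, 0 regions passed an adjusted p of 0.05 in limma by rank or by width (906 and 1047 at an unadjusted p under 0.05, against 883 and 1004 without it).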

Other observations

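Ribosomal proteins have many processed pseudogenes, copies of their mRNAs in the genome. The gene table held 317 pseudogenes whose symbol is that of a ribosomal protein gene followed by -ps. None of these 317 overlapped a region called in any library, while 522 of the 10112 other pseudogenes (5.16%) overlapped one. Ribosomal protein pseudogenes with symbols of another form would be counted among the 10112. Within 1 kb, 14 of the 317 had a region called in at least 1 library and 2 had one called in all 6. Whether reads that map equally well to several places were kept is not given in the sources used here.

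Many members also carry small nucleolar RNA genes, which guide the modification of ribosomal RNA, in their introns. The gene table placed 58 such genes inside 29 of the 81 members, among them Rpl7a and Rpl13a. Of the 92 member regions, 5 overlapped a small nucleolar RNA gene, among them those of Rps2, Rpl17, Rpl7a and Rpl6.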
